A study of Mus musculus with 2 samples.

Results

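Cytosolic ribosomal protein genes were described in CD4+ cells sorted from DEREG mice into GFP-positive and GFP-negative cells, with 1 microarray for each population. The genes were taken by symbol: every probe set that the platform annotation pairs with exactly 1 symbol of the Rpl or Rps series, or with Rplp0, Rplp1, Rplp2 or Rpsa, without the S6 kinases. This gave 105 of the 45101 probe sets on the array and 49 of 18193 genes. By symbol, 26 genes were placed in the large subunit (48 probe sets) and 23 in the small subunit (57 probe sets). The latter include Rps4l, which RefSeq lists as a transcribed pseudogene. DEREG mice carry a transgene in which control elements of Foxp3, the factor that defines regulatory T cells, drive a fusion of the diphtheria toxin receptor and GFP, so both populations come from mice with that transgene and differ in whether it was expressed. CD4+ cells were first enriched by removing other cells and then sorted by flow cytometry, and the labels call the GFP-positive cells FoxP3-positive and the GFP-negative cells FoxP3-negative. GFP reports the transgene and not Foxp3 itself. The sources used here give no organ, age, sex, number or treatment for the mice. There are no replicates, so no test was possible and each difference below is between 2 arrays.

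The ribosome reads messenger RNA in its small subunit and forms peptide bonds in its large subunit, and each subunit takes up about equal numbers of copies of its proteins. The mRNAs of these proteins are abundant in most cells and belong to the terminal oligopyrimidine (TOP) class, which starts with a C and a run of pyrimidines and is translated under control of the kinase mTOR. In T cells, activation raises ribosome production, and the large subunit protein Rpl22 is known for a role in the development of αβ T cells.

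A start-site sequence was found in the RefSeq promoter table (build GRCm38.p6) for 43 of the 49 genes. A tract of this kind, searched as a C followed by at least 4 further C or T and beginning within 5 bases of the annotated start, was present in 20 of the 43 genes (46.5%), against 21.2% of all 27025 genes in the table. It was present in 11 of 24 large subunit genes (45.8%) and 9 of 19 small subunit genes (47.4%). The annotated starts are not measured in these cells, and a gene without a tract by this search has none that begins within 5 bases of its annotated start, though pyrimidine runs may lie farther away. The 3 longest tracts of each subunit, as counted from a C within those 5 bases, are shown, followed by the start sites of Rpl22 and its paralogue Rpl22l1. Runs that begin farther upstream were counted only from that C, as in Rpl35. The same holds for Rpl7a, not shown, with 12 bases so counted and a longer whole run. Whole runs were not ranked. Each window is 30 bases long, 15 before the annotated start and 15 from it, with the part of the tract that lies in the window in capitals.
Rpl27a, chr7:109519180-109519209, plus strand: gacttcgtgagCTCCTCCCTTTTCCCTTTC
Rpl35, chr2:39005117-39005146, minus strand: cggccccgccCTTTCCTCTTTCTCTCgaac
Rpl13a, chr7:45128731-45128760, minus strand: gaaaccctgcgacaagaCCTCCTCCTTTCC
Rps10, chr17:27635230-27635259, minus strand: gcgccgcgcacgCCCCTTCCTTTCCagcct
Rps18, chr17:33955651-33955680, minus strand: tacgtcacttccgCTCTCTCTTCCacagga
Rps6, chr4:86857353-86857382, minus strand: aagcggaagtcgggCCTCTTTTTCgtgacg
Rpl22l1, chr3:28805493-28805522, plus strand: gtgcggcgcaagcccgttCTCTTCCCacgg
Rpl22, upstream annotated start, chr4:152324421-152324450, plus strand: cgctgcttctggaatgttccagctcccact
Rpl22, downstream annotated start, chr4:152325711-152325740, plus strand: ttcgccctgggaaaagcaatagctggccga

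The motif CCGGAAG, searched on both strands of the 300 bases around the start, was present in 21 of the 43 genes (48.8%) and in 9.93% of all genes in the table. In the windows shown, the tracts as counted vary in length from 8 bases in Rpl22l1 to 20 in Rpl27a, where the tract runs past the window. Neither start of Rpl22 has one that begins within the 5 bases searched. Rpl7, Rpl8, Rps14, Rps20, Rps29 and Rps4l were not matched in the table. Genes with a tract had a median difference between the arrays of 0.07 log2 (16 of 20 higher in GFP-positive cells), and genes without one 0.02 log2 (12 of 21 higher). Over all 10452 genes above the signal floor defined below, 48.9% were higher. The gap between genes with and without a tract was not tested. Among 21 other genes with TOP mRNAs, 9 were higher, with a median of −0.02 log2.

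Signals are MAS5 intensities, 1 per probe set, deposited on a linear scale. A signal floor of 60.9 was taken from genes of other tissues, and lower signals were set to it before the log2 step. Above it on at least 1 array were 47 of the 49 genes, 46 of them on both, each represented by its brightest probe set. Rpl3l, a paralogue of Rpl3 known from muscle (signals 2.8 and 14.5), and Rps16 (1.7 and 1.8) stayed below it. Each has a single probe set of its own, so a low signal there does not show that the transcript is absent. The rule decides in part which genes are seen: a further 98 probe sets name 1 ribosomal protein symbol together with pseudogenes or unnamed gene models, and 24 ribosomal protein symbols occur there without a probe set of their own. With those probe sets added, 72 of 73 symbols were above the floor, so at least 1 of Rpl3l and Rps16 then passed it.

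As a check of the sort, the signals of the 5 regulatory T cell markers summed to 9372 for GFP-positive cells, against 4536 for GFP-negative ones. Foxp3 itself gave 504 and 173, so the GFP-negative signal was also above the floor. Of the 6 CD4 T cell markers with a probe set, 6 were above the floor on both arrays, with sums of 11693 and 12947.5. Singly, 5 of them were lower in GFP-positive cells and 1 was higher, with a median of −0.39 log2. The lowest were Cd4 at 256.5 and 415.1 (−0.69 log2) and Cd3e at 540.9 and 862.2 (−0.67 log2). Other cell types were at low or mixed levels: the 6 B cell markers summed to 2291 and 4576.5, with Cd79a, Ms4a1 and Pax5 below the floor on both arrays. The 3 B cell markers above it went both ways, with Ighm at 1881 and 4139 (−1.14 log2), Cd22 at 98.3 and 235.1 (−1.26 log2) and Cd79b at 221.9 and 70.8 (1.65 log2). The 6 myeloid markers summed to 226.5 and 195.8, with none above the floor on both arrays. CD8 T and NK cell markers (3 of 5 above the floor) summed to 1435 and 1131, and erythroid and platelet markers (2 of 4) to 136 and 227. Most of the CD8 T and NK sum was Gzma, which was not low, at 1152.9 and 850.5 (0.44 log2). Klrd1 was also higher in GFP-positive cells (0.52 log2) and Cd8b1 lower (−0.20 log2). The 3′ to 5′ signal ratio of Actb was 5.30 on the array of GFP-positive cells against 3.57 on the other, and that of Gapdh 9.27 against 6.24. The part of these differences in the results below was not tested.

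Ribosomal protein genes had nearly the same signals in both populations. Among the 47 genes above the floor the median difference, log2 GFP-positive minus log2 GFP-negative, was 0.04, or 1.03-fold, with quartiles of −0.01 and 0.09. Over all 10452 genes above the floor the median was −0.01 and the quartiles −0.26 and 0.25, so the middle 50% of ribosomal protein genes spanned 0.11 log2 and that of all genes 0.51. Signals were higher in GFP-positive cells for 32 of the 47 genes (68.1%) and lower for 15, while 48.9% of all genes were higher. After quantile normalization 20 of 47 were higher and the median was −0.0026, whereas after loess 29 were higher (median 0.02) and with differences centred on all genes 35 were (median 0.05). In bulk RNA, fewer cells of a type and less RNA per cell cannot be told apart.

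Few members lay past a fixed difference. Higher by at least 0.32 log2 were 2 of the 47 genes, Rpl39 and Rpl27a, against 20.1% of all genes. Lower by at least 0.32 log2 were also 2, Rpl12 and Rps27, against 20.4% of all genes. Past 2-fold was 1 gene, Rpl27a, against 3.52% of all genes in either direction, and by probe set it was 1 of the 94 above the floor, against 3.92% of all probe sets. Each of these 4 genes had signals of at most 334 on both arrays in the probe set that represents it.

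**Figure D1:**
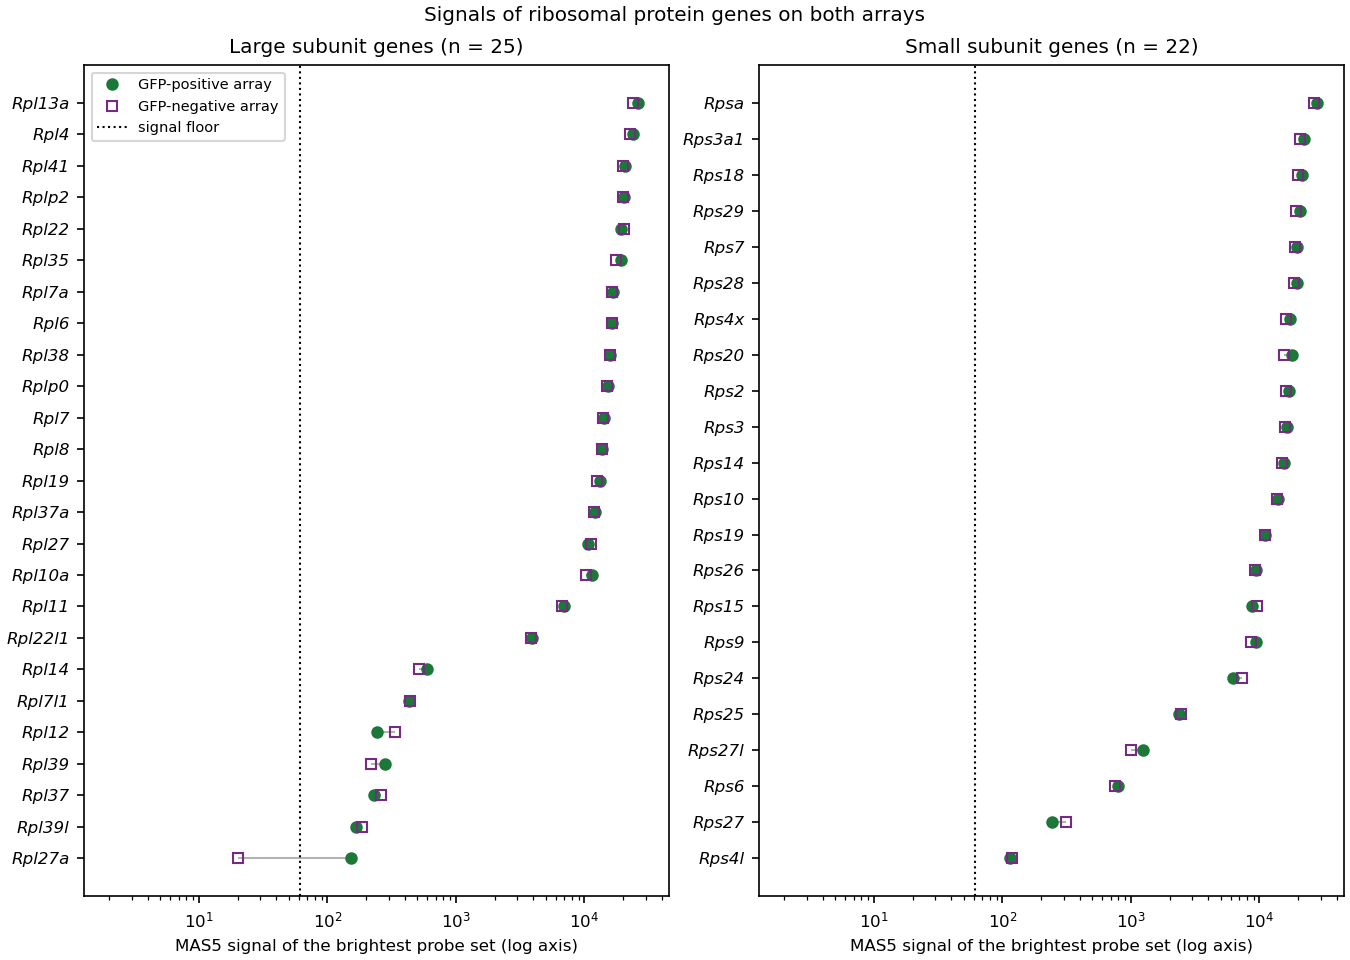
Signals of the 47 ribosomal protein genes above the floor on the GFP-positive (filled circles) and GFP-negative array (open squares), for the brightest probe set of each gene on a log axis, with the floor of 60.9 as a dotted line. The symbols overlap for most genes, while Rpl27a has signals of 153.7 and 20.2; the order of genes reflects probe sets and not transcript numbers.

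The narrow spread went with the brightness of the probe sets. Ribosomal protein probe sets made up 58 of the 452 probe sets in the top 1% of signals on each array (12.8%), and those shared with pseudogenes another 69 for GFP-positive cells and 70 for GFP-negative cells. Of the 47 genes, 29 had a mean signal of at least 10000, and these had a median difference of 0.07 log2, from −0.10 to 0.20, with 23 of 29 higher in GFP-positive cells. The 31 other genes of that brightness, among them Eef1a1, Actb, B2m and Tmsb4x, had the same median of 0.07 log2, from −0.20 to 0.35, with 21 of 31 higher. The median excess in GFP-positive cells was thus the same to 2 decimals in other bright genes, over a wider range. The 18 dimmer ribosomal protein genes had a median of −0.0088, 9 of them higher and 9 lower, and spread from −0.45 to 1.33.

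The large subunit was compared with the small subunit by the difference between the arrays, since signals of different probe sets are not on a common scale. The 25 large subunit genes above the floor had a median of 0.02 log2, 16 higher and 9 lower. The 22 small subunit genes had a median of 0.07 log2, 16 higher and 6 lower. The large minus small difference was −0.05 log2, and with 1 array per group it has no replicate error to be read against. Among genes of mean signal at least 10000 the medians were 0.03 for the large subunit (11 of 16 higher) and 0.09 for the small subunit (12 of 13 higher). With all probe sets above the floor counted singly, both subunits had a median of 0.04, from 45 and 49 probe sets. With means in place of medians the order turned, 0.07 for the large and 0.03 for the small subunit, and without Rpl27a the large subunit mean was 0.02.

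**Figure D2:**
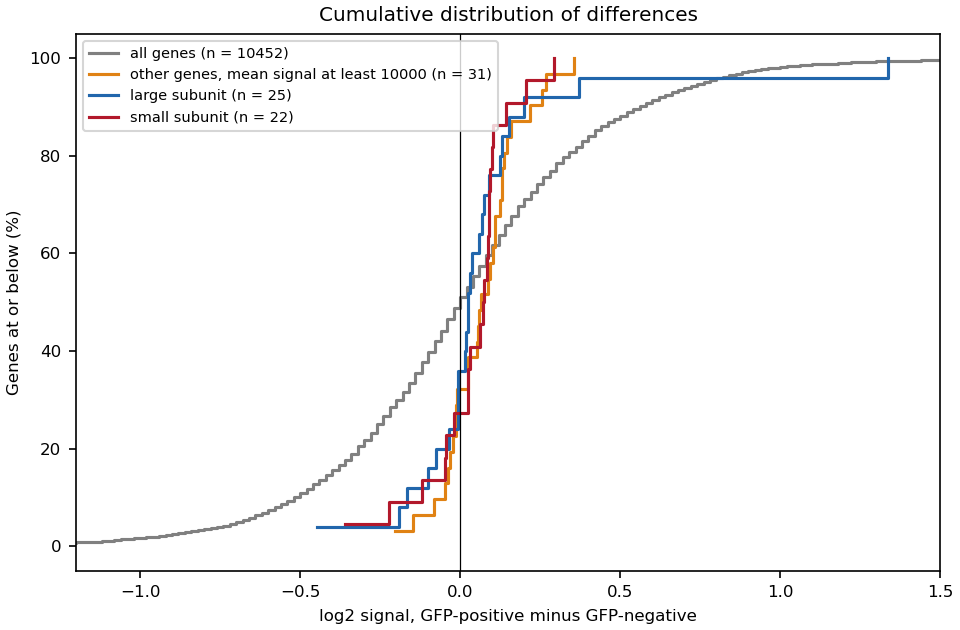
Cumulative percentage of genes at or below each log2 difference (GFP-positive minus GFP-negative), for 25 large subunit genes, 22 small subunit genes, 31 other genes of mean signal at least 10000 and all 10452 genes above the floor. Both subunit curves and that of the other bright genes rise steeply near 0, while all genes spread more widely; the last step of the large subunit curve, at 1.33, is Rpl27a.

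Genes of the P stalk, the flexible arm of the large subunit that recruits elongation factors, were near level for Rplp0 and Rplp2 and lower for Rpl12. From here on, the signal in GFP-positive cells is given first. Rplp0, the base of the stalk, had signals of 15177 and 15016, a difference of 0.02 log2. Rplp2 had signals of 20486 and 20063.5, a difference of 0.03 log2. Both differences became negative after quantile normalization (−0.04 and −0.07) and after loess (−0.01 and −0.01). Rpl12, which binds next to the stalk, had the lowest difference of any member gene, with signals of 244.7 and 334 and a difference of −0.45 log2 (1.36-fold lower). It has a single probe set of its own, and with the probe sets shared with pseudogenes added, the brightest gave 0.09 log2 instead.

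Rplp1, Rpl5 and Rps27a had no probe set of their own. Rpl11, which with Rpl5 carries the smallest ribosomal RNA into the large subunit and can bind the p53 regulator Mdm2, had signals of 6969 and 6694, a difference of 0.06 log2. Of the 9 listed proteins at the exit tunnel, through which the nascent chain leaves, 5 had a probe set of their own and 4 were higher in GFP-positive cells, with a median of 0.09 log2. Rpl4, which lines the tunnel, had signals of 24016 and 22542 (0.09 log2, and −0.04 after quantile normalization). Rpl35 had signals of 19222 and 17569 (0.13 log2), and its other 4 probe sets above the floor were also higher, the lowest by 0.03. Rpl39, which sits deep in the tunnel, had signals of 280.3 and 216.7, a difference of 0.37 log2 or 1.29-fold. That is the highest difference among large subunit genes above the floor on both arrays, from 1 dim probe set. With the shared probe sets added, the brightest gave 0.18 log2, which is under the 0.32 limit.

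The other large subunit genes with the highest differences were Rpl14 (signals 598.1 and 520.7, 0.20 log2, but −0.04 with the shared probe sets added) and Rpl10a (11406 and 10257, 0.15 log2). Rpl13a, also known for a role in translational silencing after interferon-γ, had signals of 25943 and 23828, or 0.12 log2. Its 3 further probe sets were higher as well, by 0.04, 0.06 and 0.47. On the lower side were Rpl37, with signals of 230.0 and 262.8 (−0.19 log2), and Rpl27, with signals of 10573 and 11346 (−0.10 log2). The further probe sets of Rpl27 went the other way, by 0.03 and 0.19 log2, and the mean over its probe sets was 0.04.

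Rpl27a is the one member past 2-fold, and its value is a bound. The brighter of its 2 probe sets had signals of 153.7 and 20.2, the latter below the floor, so it was at least 2.52-fold higher. The other was below the floor on both arrays (20.9 and 24.6). With the floor doubled the difference was at least 0.33 log2, and with the probe sets shared with pseudogenes added the brightest gave 0.04 log2. The gene thus entered through the array on which it was high.

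In the small subunit, Rpsa, which is also known as a laminin receptor, had signals of 28159 and 26453 (0.09 log2), and Rps3a1 22261 and 20766 (0.10 log2). Rps6, the substrate of the S6 kinases downstream of mTOR, had signals of 795.9 and 755.9 (0.07 log2) and, in a second probe set, 80.8 and 67.5 (0.26 log2). All 3 genes were thus slightly brighter on the GFP-positive array, except that Rpsa and Rps3a1 were level after quantile normalization. After Rps27l, described with the paralogues, the highest differences in the small subunit were those of Rps20, with signals of 17865 and 15509.9 (0.20 log2), Rps9, with 9407 and 8527 (0.14 log2), and Rps18, with 21375 and 19926 (0.10 log2). A further probe set of Rps9 gave 0.53 log2 at signals of 170.2 and 117.8. The other probe sets of Rps18 above the floor on both arrays gave 0.04 and −0.01 log2, and Rps18 was 0.0035 log2 after quantile normalization. Rps10, shown above for its tract, had signals of 13869.6 and 13646 (0.02 log2), and its other 5 probe sets were lower, from −0.34 to −0.05.

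Lower in GFP-positive cells were Rps27, with signals of 245.1 and 314.5 (−0.36 log2, or 1.28-fold lower), and Rps24, with 6228 and 7270.4 (−0.22 log2). Rps24 has 4 probe sets above the floor on both arrays, which ranged from −0.26 to 0.04 log2, and a dim one with signals of 108.5 and 33.0 that was at least 1.78-fold higher. The mean over its probe sets was 0.06, so its direction depends on which are used. Rps15, a protein of the subunit head near the decoding site, had signals of 8829 and 9583 (−0.12 log2) and, in a second probe set, 3222 and 3374 (−0.07 log2). Rps25 had signals of 2369.8 and 2449.5 (−0.05 log2, 0.0080 after quantile normalization and −0.63 with the shared probe sets added). Of the 10 listed head proteins with a probe set of their own, 9 were above the floor, 6 higher and 3 lower, with a median of 0.07 log2. Genes that are mutated in Diamond-Blackfan anaemia, an inherited failure of red cell production, went both ways: their median was 0.02 log2, 7 of 11 higher and 4 lower.

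**Figure D3:**
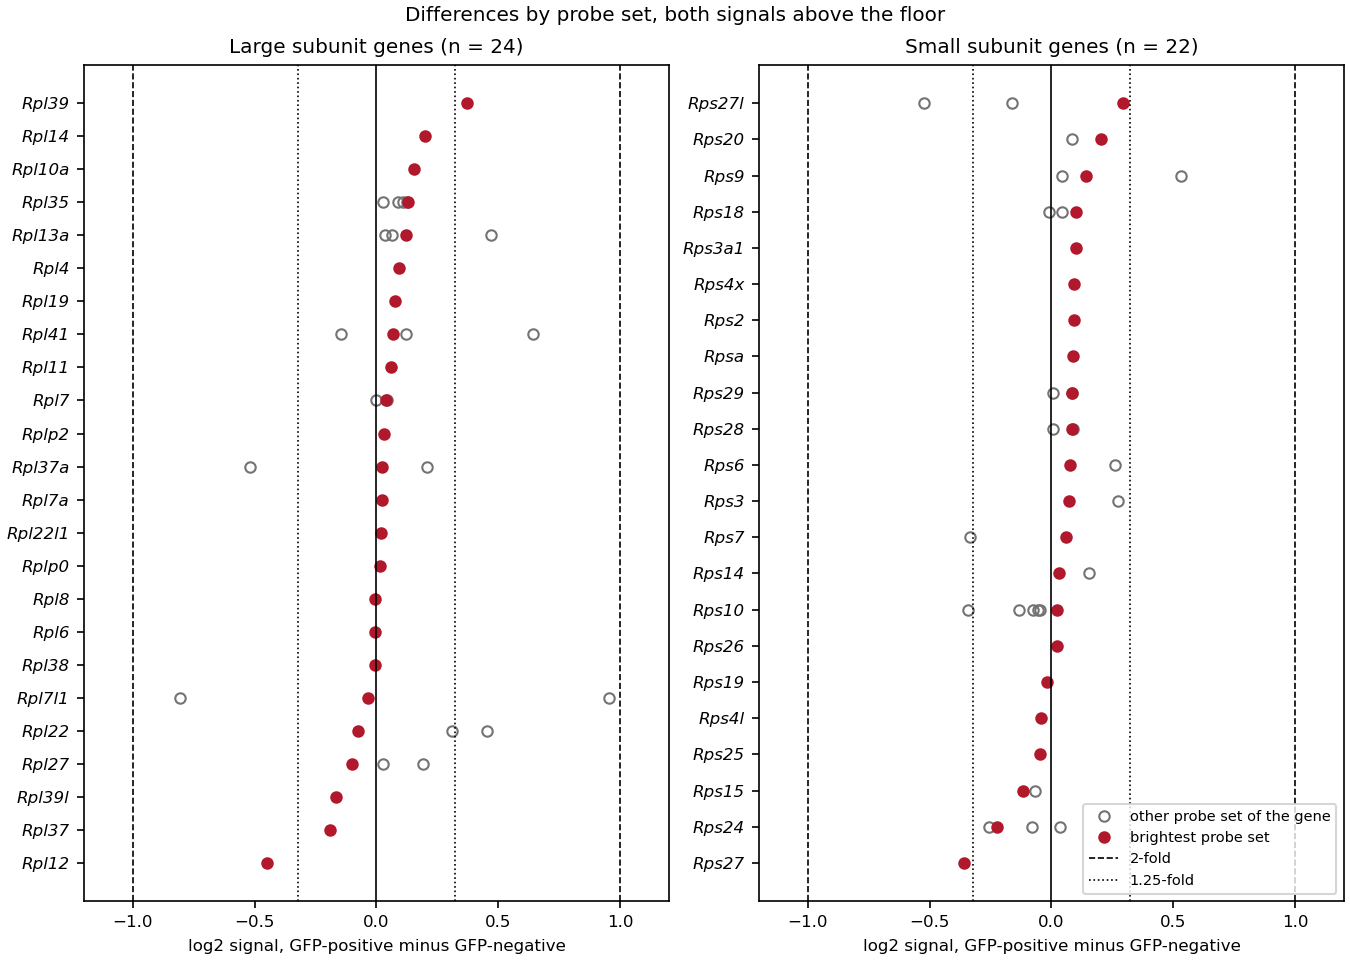
Log2 difference (GFP-positive minus GFP-negative) of each ribosomal protein gene with both signals above the floor, 24 of the large and 22 of the small subunit. Filled points are the brightest probe set, open points other probe sets of the gene, dotted lines 0.32 log2 and dashed lines 2-fold; no point passes 2-fold, and the probe sets of Rpl7l1 lie at −0.81, −0.03 and 0.96.

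Some ribosomal proteins have a less conserved paralogue that can replace the common form in some tissues. The 5 listed paralogues above the floor, among them the transcribed pseudogene Rps4l, had a median of −0.03 log2, with 2 higher and 3 lower. Rpl22l1, the paralogue of Rpl22, had signals of 3900.1 and 3855 (0.02 log2). Rpl22 had signals of 19236 and 20276 in its brightest probe set (−0.08 log2), whose _s_at ending marks probes that may match several transcripts. The other probe sets of Rpl22 gave 4124 and 3008 (0.46 log2, plain _at ending) and 363.4 and 293 (0.31 log2, also _s_at). The direction of Rpl22 thus depends on the probe set, and it was 0.23 log2 with the probe sets averaged.

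Rps27l, a paralogue of Rps27 known as a p53 target, had signals of 1232 and 1006 (0.29 log2), while its other probe sets gave −0.16 log2 (593.4 and 663.8) and −0.52 log2 (444.0 and 637.4). Averaged, they gave −0.13. Rpl7l1, a paralogue of Rpl7, was the one gene whose probe sets differed among themselves by over 1 log2 when only those above the floor on both arrays are compared. They had signals of 512.7 and 264.3, of 431.6 and 442.0, and of 85.2 and 148.9. The brightest differed by −0.03 log2, which became 0.02 after quantile normalization or loess. Rpl7 itself had signals of 14306 and 13940.5 (0.04 log2, and −0.0076 after quantile normalization), and its other probe sets gave 0.04 and −0.0013.

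Rps4x, encoded on the X chromosome, had signals of 17329 and 16234 (0.09 log2), and Rps4l, which RefSeq lists as a transcribed pseudogene, 115.3 and 118.8 (−0.04 log2). Rpl39l, a paralogue of Rpl39 known from testis, had signals of 166.9 and 187.4 (−0.17 log2), opposite in sign to Rpl39. Both are dim, and neither has a second probe set of its own.

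Agreement between probe sets of 1 gene was measured within the same arrays. It holds no variation between mice, sorts or arrays and is not an error of the difference between the populations. Of the 21 ribosomal protein genes with several probe sets above the floor on both arrays, 11 had probe sets of both signs, and the median range within a gene was 0.29 log2. The widest after Rpl7l1 were those of Rps27l (0.81), Rpl41 (0.79, from −0.14 to 0.64) and Rpl37a (0.73, from −0.52 to 0.21). In Rpl41 the probe set with the widest gap had signals of 16449 and 10545.0, and in Rpl37a 6678 and 9575, while the brightest probe sets of these genes differed by 0.07 and 0.02 log2. The narrowest were Rpl7 (0.04), Rps15 (0.05), Rps29 (0.08) and Rps28 (0.08). The standard deviation between probe sets of a gene was 0.40 log2 over 3229 genes and 0.27 over these 21. Where both signals were at least 1000 it was 0.16 log2, from 49 probe sets of 17 genes.

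Ribosomal protein genes have many near-identical pseudogenes, which the names of probe sets reflect. Of the 105 probe sets, 40 end in _x_at, which marks probes that can bind unrelated or related transcripts, 28 in _a_at (variants of 1 gene), 3 in _s_at (several transcripts) and 34 in plain _at. Above the floor, the median difference was 0.05 log2 for the 38 _x_at, 0.04 for the 27 _a_at and 0.07 for the 26 _at probe sets, and the middle 50% spanned 0.12, 0.09 and 0.36 log2. The 91 probe sets above the floor that are shared with pseudogenes had a median of 0.07 log2, with 64 higher and 27 lower, and 0.07 for the large against 0.08 for the small subunit. The 3 probe sets for 18S ribosomal RNA, a carry-over control, were mixed, at 519 and 494, 1994 and 2509, and 8877 and 8461.

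Other genes of the translation apparatus differed in spread from list to list. The median of the 9 elongation factor genes was 0.14 log2, 7 of them were higher in GFP-positive cells, and their middle 50% spanned 0.11 log2, as in the ribosomal protein genes. Eef1a1, which brings aminoacyl-tRNA to the ribosome, had signals of 22739 and 21320.0 (0.09 log2), Eif5a 4406 and 3546 (0.31 log2), and Eef2, the translocase, 4979.5 and 5961 (−0.26 log2). Among 38 initiation factor genes, 15 were higher, 23 lower and the median was −0.08 log2, with a middle 50% of 0.25 log2. The largest differences among them were those of Eif4ebp1 (331.2 and 193.6, 0.77 log2) and Eif4ebp2 (344.1 and 593.7, −0.79 log2), both inhibitors of cap-dependent initiation that mTOR inactivates. The 5 termination and recycling genes went both ways, with Abce1 at 639.6 and 472.1 (0.44 log2) and Etf1 at 1015 and 1583 (−0.64 log2).

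Among 21 other genes with TOP mRNAs, 9 were higher, 12 lower and the median was −0.02 log2. Eif4b (687.8 and 914.6, −0.41 log2) and Pabpc4 (300 and 225.2, 0.41 log2) lay farthest out, while Tpt1 (20229 and 18837) and Npm1 (9293 and 9152) differed by 0.10 and 0.02. Fau, whose product is cleaved to a small subunit protein but whose symbol is outside the Rpl and Rps series, had signals of 8046 and 9853 (−0.29 log2).

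Genes that build ribosomes were spread around 0. The 66 ribosome biogenesis genes had a median of −0.03 log2 and quartiles of −0.24 and 0.13, and 28 of them were higher and 38 lower. Gnl3l, a nucleolar GTPase, had signals of 324.2 and 120.3 (1.43 log2), and Bysl, needed for small subunit maturation, 143.8 and 277.1 (−0.95 log2). RNA polymerase I transcribes ribosomal RNA. Of the 14 listed genes of its subunits and its initiation factors, 7 were higher and 7 lower. The subunit gene Polr1a had signals of 129.3 and 300.9 (−1.22 log2), and the initiation factor gene Taf1a 332.3 and 149.8 (1.15 log2). The 13 genes of the Rps6k series and the mTOR pathway had a median of 0.02 log2, 7 higher and 6 lower. Of the Rps6k series they held Rps6ka3, Rps6ka5 and Rps6ka6. Rps6kb1 and Rps6kb2, the S6 kinases downstream of mTOR, were not among them. Larp4 had signals of 303.7 and 193.8 (0.65 log2) and Rps6ka5 171.9 and 112.1 (0.62 log2). Rptor, a subunit of the mTOR complex that phosphorylates the S6 kinases, had signals of 55.7 and 195.5, the first below the floor, and was at least 3.21-fold lower.

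Mitochondrial ribosomal protein genes, whose products form a separate ribosome, had a median of 0.03 log2, close to the cytosolic genes, with 41 higher and 35 lower of 76. Their middle 50% spanned 0.33 log2, against 0.11 for the cytosolic genes, and none of their signals passed 3723. Mrpl14 had signals of 250 and 131.2 (0.93 log2) and Mrps26 1754 and 2928 (−0.74 log2). Higher by at least 0.32 log2 were 8 of the 76 mitochondrial genes and lower by as much were 9, against 20.1% and 20.4% of all genes. The difference from the cytosolic genes, with 2 of 47 in each direction, was not tested.

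**Figure D4:**
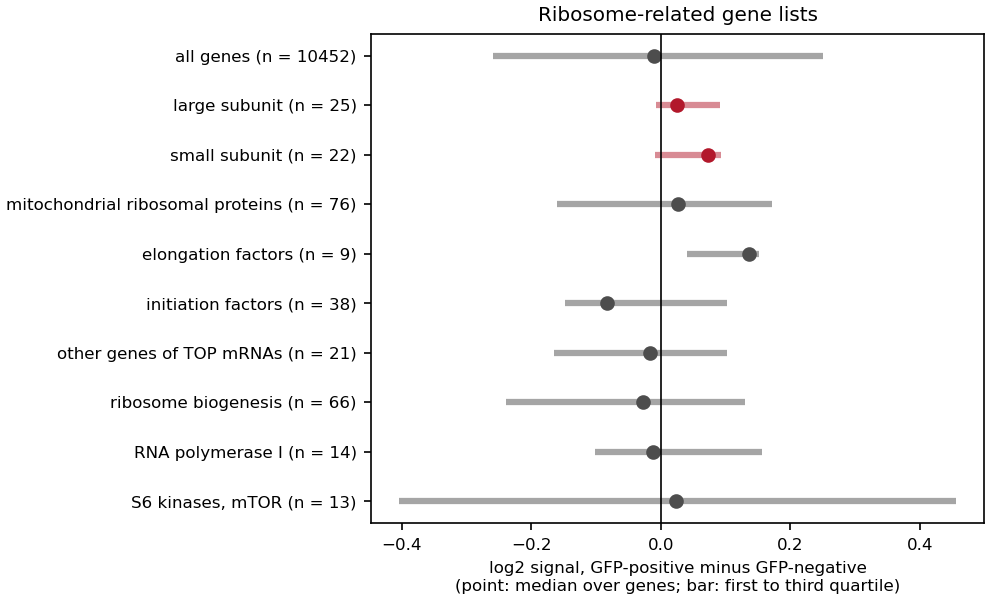
Median (point) and lower to upper quartile (bar) of the log2 difference (GFP-positive minus GFP-negative) over the genes above the floor in each list. Both cytosolic subunits have medians of 0.02 and 0.07 with short bars, and mitochondrial ribosomal proteins a median of 0.03 with a longer bar. The list labelled S6 kinases, mTOR has the longest bar. It holds Rps6ka genes and genes of the mTOR pathway, without Rps6kb1 and Rps6kb2.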

How the data were processed

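Sorted CD4+ cells were profiled on Affymetrix mouse arrays, 1 array per group, and each was placed by its title. The deposited values are 1 linear intensity per probe set, for which the submitters' processing notes name MAS5 as the authors' tool. No version or detection call is given in those notes. The 2% trimmed mean was 150.0 on both arrays.

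Of 45101 probe sets, 34945 carried 1 symbol and 932 several; the 64 controls were left out. Symbols were checked against the RefSeq gene table (34741 matched, 0 altered). A gene was represented by its probe set of highest mean log2 signal. The floor was the 90th percentile over 120 probe sets of 66 tissue-restricted genes; 15 of these genes still passed it, each by its brightest probe set. Each difference is the log2 signal of the GFP-positive array less that of the GFP-negative array. No test was run, since each group has 1 array, and the number of arrays limits the precision.

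Named genes were, by rule, stalk and Rpl11 genes, paralogue pairs, Rps6 and Rpsa, the 4 most different genes per subunit and direction and the 2 brightest per subunit, every probe set past 2-fold, genes with disagreeing or no usable probe sets, and per other list the 2 largest differences above the floor on both arrays. Rptor, Rps10, Rpl41, Rpl37a, Rps28, Rps29, Eef1a1, Tpt1, Npm1, Actb, B2m and Tmsb4x were named after their values were seen. Members and lists were chosen with earlier results of these data known. The brightness limit of 10000 was set after seeing the data. For the GFP-positive against GFP-negative comparison, the calculation was tested on simulated data drawn from the GFP-negative array: 200 of 200 genes changed 4-fold were recovered among 9347 genes, with 0 false calls. The simulated noise was well below the scatter of 0.40 log2 between probe sets of a gene. The changed genes also lay well above the floor and were called at 2-fold. The simulation thus checks the arithmetic and not whether differences as small as those reported here can be detected. Python 3.11.15, numpy 2.4.6, pandas 2.3.3 and statsmodels 0.14.6 were used. Alternatives are given in the closing section.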

Additional observations from a re-analysis of the deposited data

How the results depend on the processing

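After quantile normalization the median was −0.036 log2 for the large subunit and −0.0026 for both together, and 20 of 47 genes were higher. With means the large minus small difference was 0.034. Past 2-fold were 2 probe sets after loess, 0 with the floor doubled, 10 without a floor, 2 with probe sets shared with pseudogenes (chosen after seeing the data) and 0 among genes of mean signal at least 10000 (also chosen so). Past 0.32 log2 were 8 genes without _s_at and _x_at probe sets, 2 with shared probe sets and 0 among the bright genes, and with shared probe sets 56 of 72 genes were higher. The causes were not tested. The other 71 of 84 group values moved by at most 0.1 log2 with the same sign, or by at most 1.5 times for counts. Of 274 values for single genes, 265 stayed within 0.40 log2, the scatter between probe sets over all genes, and 12 of 31 named genes changed sign under at least 1 setting. The limits of 0.1 and 0.40 log2 are wider than most of the differences they were applied to. Staying within them therefore does not show that a small difference is stable. Rpl27a was 2.93 log2 without a floor and 0.33 with it doubled, Rps24 was 0.83 log2 without _x_at probe sets, and Rps25 −0.63 with shared ones. No paired analysis was possible because each group has 1 array. For single genes, the standard deviation between probe sets of a gene was 0.40 log2 over all genes and 0.27 over ribosomal protein genes. It was 0.16 over ribosomal protein genes with both signals at least 1000. These values come from the same arrays and do not measure the error of a difference between the populations.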
